A study of Danio rerio with 8 samples.

Results

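The tenascins, the thrombospondins, tgfbi and coch are matrix genes of which 9 were looked for by symbol (tnn, tnc, thbs1b, thbs1a, thbs2a, thbs3a, thbs4b, tgfbi and coch) among the genes of a microarray that compared the cornea of the adult zebrafish with the epidermis of its skin. Of these 9, 6 had a probe (tnn, thbs1b, thbs3a, thbs4b, tgfbi and coch), with 10 probes between them, out of 14462 genes and 21061 named probes. tnc, thbs1a and thbs2a matched no symbol on the array and are not among the measured members. The gene tncb, of which tnc is an older name, had a probe and is given beside them. The genes were chosen with their ratios of cornea to epidermis already known, so these ratios are a description of the members and carry no test. All fish were adults of the AB2O2 wild-type strain, and every array held cornea in one channel and epidermis in the other. For each of 4 biological repeats, RNA of corneae pooled from many eye globes was set against RNA of epidermis pooled from several fish, and each pair of extracts was hybridised on 2 arrays with the Cy5 and Cy3 dyes exchanged. The arrays of repeats 1 and 2 shared slide 1, and those of repeats 3 and 4 shared slide 2. The epidermis was collected on scales scraped from the body, so cells of the scale can be in that sample.

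These proteins are secreted and join the matrix around cells, where most act less as scaffold than as signals that alter how cells adhere, spread and respond to growth factors, for which they are called matricellular. Tenascins are built of EGF-like and fibronectin type III repeats with a fibrinogen-like end, and thrombospondins of EGF-like and calcium-binding repeats with a lectin-like end. In mammals tenascin C and THBS1 appear in the healing cornea, and THBS1 can activate latent TGF-beta. TGFBI, a chain of fasciclin domains induced by TGF-beta, is abundant in the human corneal stroma, and its mutation causes inherited corneal dystrophies. Cochlin, the product of COCH, carries an LCCL domain and von Willebrand A domains and is best known from the inner ear.

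tnn encodes tenascin W, also called tenascin N, and is the one member for which the sources used here hold a sequence. The study measured this gene under the name tnw by RT-qPCR with a pair of primers, printed below. Their match to a transcript or to the array probes was not examined here. Both primers are 22 bases long, with a GC content of 50% and 40.9%. Both are written 5′ to 3′, with no part in capitals.
tnn forward primer: caggtgcttgcagtaatagacg
tnn reverse primer: ttaatctaacggccatggtttc

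A measurement here is the log2 of the cornea signal over the epidermis signal, so that 1 is a 2-fold excess in cornea. Values were averaged over the probes of a gene and over the 2 arrays of a repeat, and are given as mean ± SD over the 4 repeats. No source gives the direction of the values, which was taken from the labels, where cornea is named before epidermis. Read this way, the corneal epithelial markers pax6b and scel stood at 4.09 and 3.43. The enamelin gene enam, listed as a scale marker, stood at −5.35, so each of these lay on the side of its own tissue. Other listed markers did not: ctsk and alpl of the scale list stood at 2.69 and 2.28, and krt15 of the skin epidermis list at 3.86. By RT-qPCR the study found pax6b, scel and tnn, there named tnw, higher in cornea than in dermis, a different reference tissue. Base 2 is likewise the custom of the software. Gene names hold only if the rearranged probe grid used to read the annotation is right: with it, r between the first and the second probe was 0.361 over the 5098 genes that have at least 2, and it was 0.0191 when features were numbered as given. These genes are not independent replicates. Array medians lay between −0.02 and 0.01. Repeats correlated at r between 0.544 and 0.703 across features, and the median SD of a gene between repeats was 0.31. The ratio comes from whole tissue, in which fewer cells of a type and less RNA per cell cannot be told apart.

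All 6 measured members had a mean ratio above 0, with a median of 1.98 on the log2 scale against 0.03 over all genes. thbs1b and tnn stood at the top, 4th and 7th of the 14462 genes. coch followed with a several-fold excess in cornea, then thbs4b and tgfbi with smaller ones, and thbs3a was near 0. A gene was called higher or lower in cornea where the adjusted p of limma was under 0.05. By this rule 5 of the 6 members were called higher and 0 lower, beside 22.9% and 13.8% of all genes. The members were picked on this same contrast, so nothing is read from the count.

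**Figure D1:**
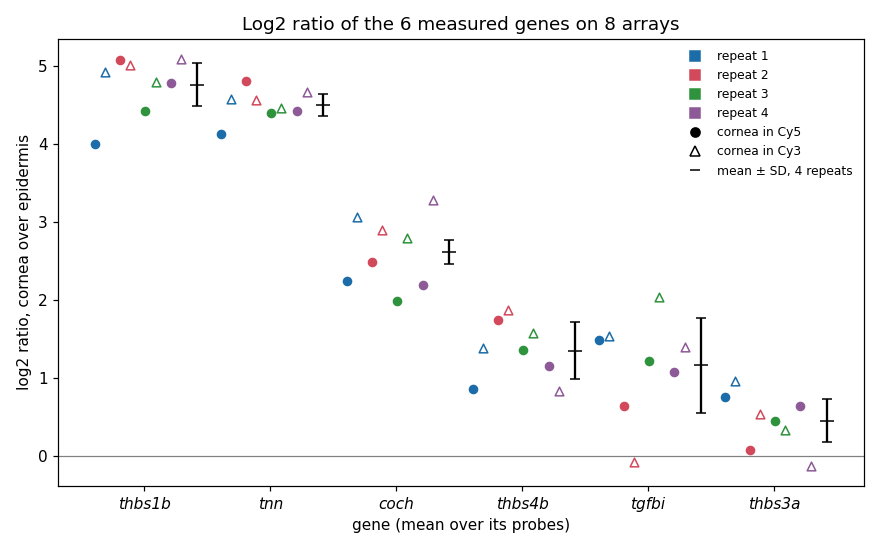
Log2 ratio of cornea over epidermis (vertical axis) of the 6 measured members in each of the 8 arrays, with the mean and SD of the 4 repeats. tnn and thbs1b lie between 4.00 and 5.09 on every array, whereas tgfbi and thbs3a each have 1 array below 0.

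tnn, the tenascin of the set, is known in mammals from bone, periosteum and certain stem cell niches. Its log2 ratio was 4.35, 4.68, 4.43 and 4.54 in repeats 1 to 4, and the 8 arrays ran from 4.12 to 4.80. The mean of 4.50 ± 0.15 is a 22.6-fold excess in cornea. Every array was far above 0 and the repeats were close together, since 87.2% of genes had a larger SD. The 2 probes of tnn did not give the same size of ratio. Probe 40118 read 5.68, 6.11, 5.72 and 5.72, a mean of 5.81 ± 0.20 or 56.0-fold, and 0 of the named probes had a higher mean. Probe 13142 read 3.01, 3.26, 3.14 and 3.36, a mean of 3.19 ± 0.15 or 9.14-fold, with 120 named probes above it. Both probes were above 0 on all 8 arrays, but they lay 2.62 apart on the log2 scale, and 2.37% of genes with at least 2 probes differed more.

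The tenascin C gene is the member of the family best known from wounded and developing tissue. The symbol tnc was on no probe, but the RefSeq table gives it as an older name of tncb, which had 1 probe. tncb read −0.07, 0.91, 0.06 and 0.22 in the 4 repeats, a mean of 0.28 ± 0.43. Repeat 2 lay above the other repeats, which were close to 0, and limma made no call (adjusted p = 0.291). The gene of tenascin R, tnr, known in mammals from the nervous system, read 0.79, 1.43, 1.16 and 1.06, all above 0 and with a mean of 1.11 ± 0.27 (limma, adjusted p = 0.00165). In the RefSeq annotation of the GRCz12tu assembly, 1 gene stands between tnr and tnn.

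thbs1b is a zebrafish counterpart of THBS1, which in mammals binds CD36 and CD47, restrains the growth of vessels and activates latent TGF-beta. Its ratio was 4.46, 5.04, 4.61 and 4.93 in the 4 repeats, and the 8 arrays lay between 4.00 and 5.09. The mean was 4.76 ± 0.27, or 27.1-fold, from 1 probe. No array came near 0, and 0.0207% of genes had a higher mean ratio. The ranges of thbs1b and tnn overlapped, but both were read on the same arrays, and thbs1b was above the tnn average in every repeat. Their order depends on the tnn probe: probe 40118 (5.81) lay above thbs1b and probe 13142 (3.19) below it.

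thbs4b belongs to the thrombospondins that assemble as pentamers, which in mammals include THBS4 of tendon and muscle attachment. It read 1.12, 1.81, 1.47 and 0.99, a mean of 1.35 ± 0.37 or 2.54-fold. All 8 arrays were above 0, between 0.84 and 1.88. Both probes were above 0 on every array: probe 3439 had a mean of 1.85 ± 0.45 and probe 28677 a mean of 0.84 ± 0.29. Taking the less variable probe for the gene in place of the mean thus lowered its ratio to 0.84. thbs3a, of the same pentamer group, read 0.86, 0.30, 0.39 and 0.26 from 1 probe. Its mean was 0.45 ± 0.27, or 1.37-fold, and 7 of 8 arrays were above 0. thbs3a is the member that was not called, and 24.9% of all genes had a higher ratio.

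**Figure D2:**
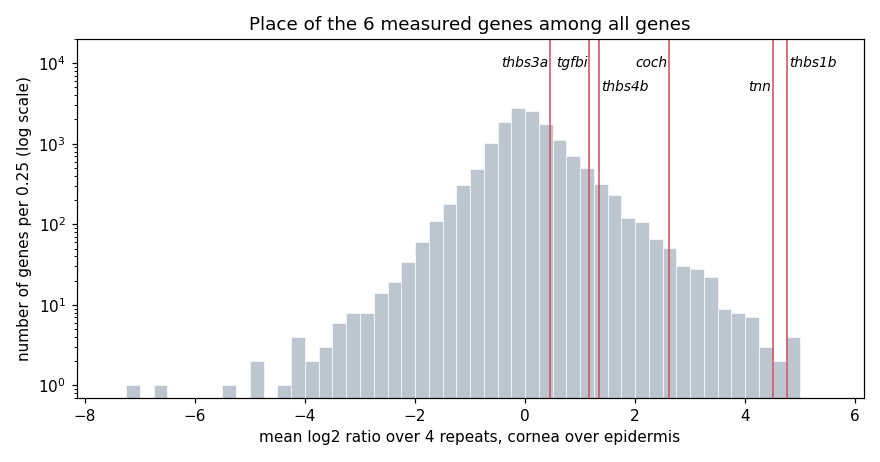
Number of genes (vertical log axis) by mean log2 ratio of cornea over epidermis (horizontal axis) for the 14462 genes, with a line at each of the 6 members. thbs1b at 4.76 and tnn at 4.50 lie in the far right tail, and thbs3a at 0.45 lies within the bulk around 0.03.

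tgfbi showed the largest spread of the members. Its repeats read 1.51, 0.28, 1.63 and 1.23, a mean of 1.16 ± 0.61 or 2.24-fold, and 13.6% of genes had a larger SD. Repeat 2 was low, and 1 of its arrays was the one array below 0. The probes differed in sign, as did the first and second probe in 38.5% of genes with at least 2. Probe 42081 read 2.79, 2.88, 2.89 and 2.48, a mean of 2.76 ± 0.19 or 6.77-fold, with all 8 arrays between 2.36 and 2.96. Probe 3564 read 0.23, −2.31, 0.37 and −0.02, a mean of −0.43 ± 1.26, with 4 of 8 arrays above 0. The low repeat 2 thus came from probe 3564, whose arrays there were −1.64 and −2.98, while probe 42081 in repeat 2 did not fall below the other repeats. The probes lay 3.19 apart, and 1.12% of genes with at least 2 probes differed more. With the less variable probe as the value of the gene, tgfbi stood at 2.76. Its call was lost on the arrays with cornea in Cy3 alone and on slide 1 alone.

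coch, the cochlin gene, read 2.65, 2.69, 2.39 and 2.74, a mean of 2.62 ± 0.15 or 6.14-fold. All 8 arrays were above 0, between 1.99 and 3.29, and 0.933% of genes had a higher mean ratio. The repeats of this average of 2 probes were tight, with 85.3% of genes more variable, but each probe alone varied more. Probe 35471 had a mean of 3.28 ± 0.21 (9.70-fold) and probe 41562 a mean of 1.96 ± 0.33 (3.88-fold), and both were above 0 on every array. In the order of the members by probe averages, the repeats of coch overlapped neither those of tnn above it nor those of thbs4b below it. The repeats of thbs4b and tgfbi overlapped, as did those of tgfbi and thbs3a. The separation of coch did not hold for every single probe. Repeats of coch probe 35471 overlapped those of tnn probe 13142, and repeats of coch probe 41562 overlapped those of thbs4b probe 3439. tgfbi probe 42081, at 2.76, lay above the coch average of 2.62. Its repeats were above all those of coch probe 41562 and below all those of coch probe 35471. The place of coch in the order thus depends on the probe read, also against tgfbi.

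**Figure D3:**
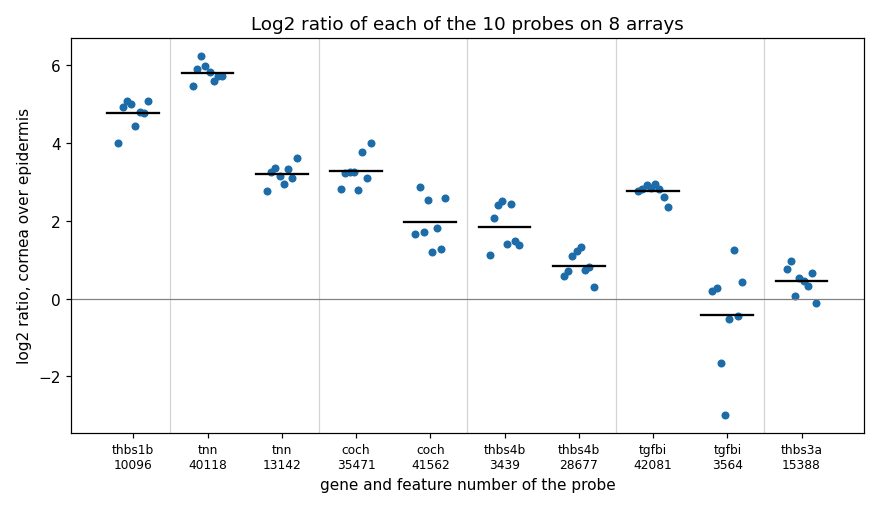
Log2 ratio of cornea over epidermis (vertical axis) of the 10 probes of the 6 members (horizontal axis), with 1 point per array and a bar at the mean. The probes of tgfbi lie on either side of 0, at −0.43 and 2.76, and those of tnn at 3.19 and 5.81.

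Of the 6 members, 4 (tnn, thbs1b, thbs4b and coch) had all 8 arrays above 0, as did 21.8% of all genes. Nothing is read from the counts of members here, since the members were picked on these ratios. The members just inside and just outside the call were tgfbi at 1.16 and thbs3a at 0.45. With stricter limits, an adjusted p under 0.001 and a ratio over 2-fold, 3 members passed (tnn, thbs1b and coch), beside 6.64% of all genes. The same 3 were called when limma tested against a 2-fold ratio (treat), beside 3.75% of all genes.

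The exchange of dyes is independent of how the members were chosen and was tested. coch read lower with cornea in Cy5 than with cornea in Cy3 in 4 of 4 repeats: 2.24 and 3.06, 2.49 and 2.90, 1.99 and 2.79, and 2.19 and 3.29. The orientations did not overlap, with means of 2.23 ± 0.20 and 3.01 ± 0.22, and 3.28% of all genes had every Cy5 array below every Cy3 array. The dye effect, which is Cy5 minus Cy3 divided by 2, was −0.39 ± 0.14. After adjustment limma made no call (unadjusted p = 0.00465, adjusted p = 0.365). For the other members the dye effect lay between −0.19 (thbs1b) and 0.03 (thbs3a), with adjusted p from 0.491 to 0.924. Among all genes limma called 0% for the dye, or 0 genes, with 1735 under an unadjusted p of 0.05. A missed threshold does not show that the dye orientations gave equal values. coch was above 0 in cornea in both orientations.

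Slides were compared in the same way. The difference of slide 2 minus slide 1 was −0.03 (standard error 0.28) for tnn, 0.02 (0.33) for thbs1b and −0.11 (0.28) for coch. It was −0.23 (0.36) for thbs4b, −0.25 (0.31) for thbs3a and 0.53 (0.47) for tgfbi, where repeat 2 lies on slide 1. None was called (limma, adjusted p = 1.00 for all 6), nor was any other gene (0%), with 478 genes under an unadjusted p of 0.05. With 2 repeats a slide, a missed threshold does not show that the slides gave equal values.

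Genes whose ratios were most like those of the leading members were found by the root mean square difference over the 4 repeats. For tnn the nearest were hmx4 (0.212), ccl19b (0.269) and acta2 (0.300), and for thbs1b acta2 (0.172), hmx4 (0.254) and ccl19b (0.508). Of these, hmx4 encodes a homeobox factor, ccl19b a chemokine and acta2 smooth muscle actin. Few genes had ratios as high as tnn and thbs1b, and nearness was measured on the same ratios that chose the members, so neighbours shared by both follow largely from their level. For coch they were etv4 (0.145), rpl8 (0.164) and hk2 (0.172), which encode an ETS factor, a ribosomal protein and a hexokinase. For tgfbi they were dennd2c (0.223), olah (0.257) and fth1a (0.260).

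The other tenascins and thrombospondins of zebrafish were then read from the same fit, with limma calls. The counts of each list stand beside the 22.9% of all genes called higher and the 13.8% called lower, and nothing particular to a list is read from them. Of 7 in the list 3 were measured, and all 3 were called higher in cornea, with a median of 0.89 against 0.03 over all genes. Besides tnr, thbs3b read 0.42, 0.79, 1.54 and 0.82, all above 0 with a mean of 0.89 ± 0.47 (adjusted p = 0.0135), though slide 1 alone made no call (adjusted p = 0.193). thbs2b read 1.04, 0.95, 0.11 and 0.88, with repeat 3 near 0 and a mean of 0.75 ± 0.43 (adjusted p = 0.0215). Its call was lost without repeat 1, 2 or 4 (adjusted p = 0.0743, 0.0726 and 0.0826), on the Cy5 arrays alone and on slide 2 alone.

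Relatives of tgfbi and coch by domain, those with fasciclin, LCCL or von Willebrand A domains, had 9 of 17 genes measured, of which 2 rose and 0 fell, with a median of 0.24. Both were matrilins, cartilage matrix proteins in mammals. matn4 stood at 1.52 ± 0.18 (adjusted p = 0.000342), but its 3 probes ran from 0.06 to 3.21, and with the least variable probe the call was lost (adjusted p = 0.780). matn1 stood at 0.58 ± 0.26 (adjusted p = 0.0205) and lost its call without repeat 1, 3 or 4 (adjusted p = 0.0529 to 0.0879), on the Cy5 arrays or slide 1 alone (adjusted p = 0.459 and 0.369) and in the fit with the repeat as a block and a dye term together (adjusted p = 0.101).

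Other matricellular and adhesive matrix proteins went both ways, with 8 called higher, 4 lower and 8 not called of 20 measured, and a median of 0.21. The highest were the CCN genes ccn2a, at 2.65 ± 0.49 (adjusted p = 0.00025), and ccn1, at 2.21 ± 0.40 (adjusted p = 0.000286), whose products act on adhesion and are targets of mechanical and TGF-beta signals. Both probes of ccn2a and of ccn1 were above 1 on the log2 scale. The other measured CCN genes were not called higher: ccn1l1 was called lower, at −0.53 ± 0.29 (adjusted p = 0.0339), and ccn1l2 and ccn2b were not called. The lowest were mgp, an inhibitor of mineralisation, at −1.91 ± 0.38 (adjusted p = 0.00043), and smoc2, a calcium-binding matrix protein, at −1.01 ± 0.43 (adjusted p = 0.00653). smoc2 lost its call with either dye orientation alone, on slide 2 alone and in the fit with the repeat as a block and a dye term together (adjusted p = 0.0820 to 0.167).

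Receptors and binding partners of the members had 24 of 35 genes measured, of which 9 were called higher and 1 lower, with a median of 0.11. The integrin subunit gene itgb1b stood at 2.23 ± 0.28 (adjusted p = 0.000165) and the thrombospondin receptor gene cd36 at 1.08 ± 0.39 (adjusted p = 0.00382), whereas itgb3a stood at −1.19 ± 0.33 (adjusted p = 0.00189). The call of cd36 was lost on the Cy5 arrays alone (adjusted p = 0.0664) and on slide 2 alone (adjusted p = 0.0699). Of 10 measured TGF-beta ligand, latency, receptor and intracellular SMAD genes, 3 were called higher and 0 lower, with a median of 0.25. Those called were the ligand gene tgfb1a at 1.66 ± 0.42 (adjusted p = 0.000868), the SMAD gene smad3a at 0.83 ± 0.15 (adjusted p = 0.00291) and the receptor gene tgfbr2b. The repeats of tgfbr2b read 2.29, 1.33, 2.18 and 2.60 (adjusted p = 0.000701).

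Genes of other proteins with thrombospondin type 1 repeats had 15 of 29 measured, and 3 were called higher, 2 lower and 10 not called, with a median of 0.04. rspo1, a Wnt agonist, stood at 2.49 ± 0.17 (adjusted p = 8.08e-05) and spon1b, an F-spondin, at 1.19 ± 0.10 (adjusted p = 0.000595). spon2b, a spondin of the same family, stood at −1.54 ± 0.42 (adjusted p = 0.00115). thsd7aa stood at −0.47 ± 0.16 (adjusted p = 0.0280), and its call was lost without any 1 repeat (adjusted p = 0.0564 to 0.109), on the Cy5 arrays or either slide alone and with the slide as a block (adjusted p = 0.0546 to 0.335). The 6 lists together held 81 measured genes, 28 of them higher and 7 of them lower in cornea, and their median was 0.16.

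**Figure D4:**
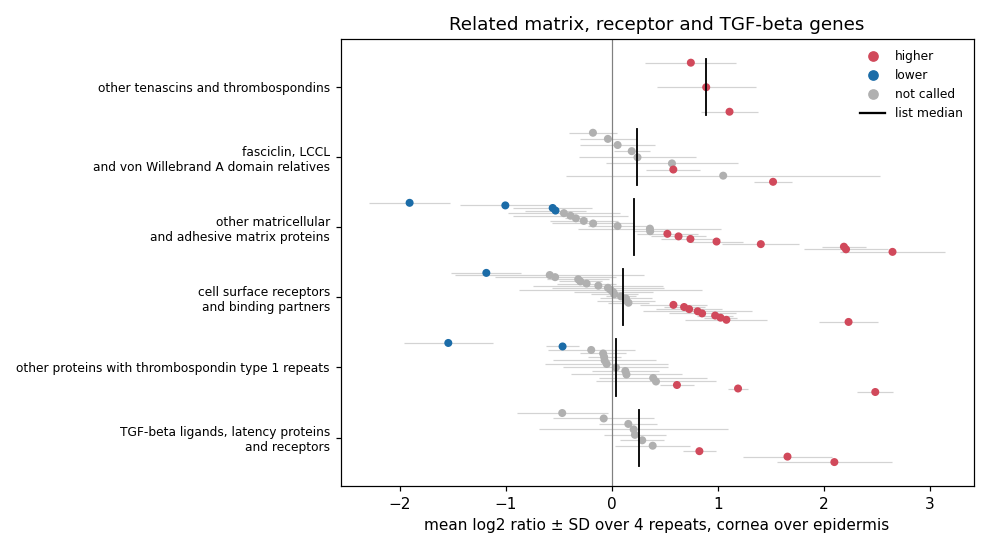
Mean log2 ratio of cornea over epidermis (horizontal axis) of the 81 measured genes of the 6 lists, 1 point per gene with the SD of 4 repeats, coloured by call, and a line at each list's median. ccn2a at 2.65 and rspo1 at 2.49 are highest, and mgp at −1.91 is lowest.

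Markers of the cell types these tissues can hold were counted in the same way. All 8 corneal epithelial markers were called higher, with a median of 2.67. Of these, pax6a, pax6b, scinlb, scel, epcam, tfap2a and sox3 are among the study's cornea genes. So are dcn, kera, foxc1a, ca2 and gnat2 of the other lists. The study selected its cornea genes as enriched in cornea from microarrays that included this comparison, so these calls are no separate evidence. Of the stromal markers 4 of 8 were called higher and 1 lower (median 0.39), with dcn at 2.84 and lum at −1.55. Endothelium and annular ligament markers had 3 of 5 higher and 0 lower (median 1.08). Those called were foxc1a at 3.34, col8a1b at 2.20 and lmx1ba at 1.08, and col8a2 and foxc1b were not called. By in situ hybridisation the study found adult foxc1a mainly in the corneal epithelium, so its call cannot be read as endothelial. Tendon, cartilage and sclera markers had 4 of 10 called higher and 0 lower (median 0.15). Scale osteoblast and osteoclast markers had 2 of 14 higher and 5 lower (median −0.19), with ctsk at 2.69 and enam at −5.35. Dermal fibroblast markers had 4 of 10 higher and 4 lower (median 0.24). Skeletal muscle markers had 6 of 15 higher and 1 lower (median 0.08), with atp2a1 at 3.04 and pvalb2 at −0.68. The call of pvalb2 was lost without repeat 1, 2 or 3. Smooth muscle and vascular markers had 3 of 13 higher and 4 lower (median −0.25), with acta2 at 4.72 and pecam1a at −1.72. Those higher were the smooth muscle genes acta2, tagln and myh11a, and those lower the vascular genes pecam1a, egfl7, tek and kdrl. Other genes of both kinds were not called. Skin epidermis markers had 6 of 11 higher and 2 lower (median 0.94), and lens and retina markers 3 of 16 higher and 0 lower (median 0.19). Among the members, the study's in situ hybridisation placed adult tnn, there named tnw, mainly in the corneal epithelium within the cornea. The study found every gene examined in this way in the adult eye in the retina too. It grouped coch with corneal endothelium genes in fish younger than adult. The study also named coch and tgfbi among its identified cornea genes. The part of the listed cell types in the ratios of tnn, thbs1b, coch, thbs4b and tgfbi was not tested here.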

How the data were processed

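For each array the authors deposited log ratios of its features, read here as log2 by the custom of the software and made with limma (version not given in the sources used here) from GenePix scans, by background correction with the minimum method, normalisation within arrays and quantile normalisation of average intensities between arrays. Spot intensities were not used here, so probes near background could not be told apart, and the number of arrays limits the precision. Arrays of a repeat with opposite dyes correlated above 0 (r = 0.390 to 0.515), so all arrays already ran the same way and every sign was kept.

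Probes were named from the platform annotation after rearranging the probe grid, which left 21061 of 45220 features with 1 symbol. RefSeq (GRCz12tu) held 13752 of the 14462 gene IDs. Probes of a gene were averaged, then the 2 arrays of a repeat (n = 4). The mean was tested against 0, two-sided, by the lmFit and eBayes functions of limma 3.58.1 (R 4.3.3), with Benjamini-Hochberg adjustment over all genes and a threshold of 0.05, as were the dye effect and the slide difference. The code was tested on simulated data. data.table (version 1.17.8), Python 3.11.15, numpy 2.4.6, pandas 2.3.3 and matplotlib 3.10.9 were used.

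The repeat number pairs arrays by design, as they hold the same extracts. Deviations correlated at 0.0213 to 0.0899 within repeats and −0.0924 to 0.0370 between them. These correlations, across all features, were weak and their ranges overlapped. In the fit with the repeat as a block and a dye term, limma estimated a correlation of 0.336 between the arrays of a repeat over the named genes. The pairing was taken from the design. The members and lists were chosen with earlier results of these data known. Every member was named, with the 2 highest and 2 lowest called genes of each of 6 pathway lists and the 3 genes nearest to tnn, thbs1b, coch and tgfbi, passing over clone-style names. The same rule picked genes from 10 cell type lists, but these lists are given mainly as counts, with only some of the picked genes named. tncb and thbs2b were named besides, as relatives. smad3a, ccn1l1, ccn1l2 and ccn2b were named as further genes of their lists and were not run under the alternatives. Alternatives were leaving out each repeat, 1 dye or 1 slide, the repeat as a block with a dye term, the slide as a block, other centring, other probe and other call rules.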

Additional observations from a re-analysis of the deposited data

Results flagged for a closer look

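Among the 33 groups of 4 repeats looked at (members, their probes and the named genes), 3 held a repeat that stood far from the other repeats relative to the whole range, where chance gives about 1 group in 20. In tgfbi probe 3564, repeat 2 read −2.31, against −0.02 to 0.37 in the other repeats. In tnn probe 40118, repeat 2 read 6.11, against 5.68 to 5.72 in the others. In spon1b, repeat 2 read 1.33, against 1.13 to 1.16 in the others. All 3 were in repeat 2, in which the tgfbi probe fell below the other repeats and the tnn probe and spon1b lay above them.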

How the results depend on the processing

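Of the 84 values of the 6 members under 14 alternatives each, 78 moved by less than 1 SD between repeats and 0 changed sign. Much of this was fixed in advance, so the count does not measure robustness. For these members the median of probes, the slide as a block and the replicate block with a dye term return the main value. A gene with 1 probe keeps it as its least variable one. Leaving out 1 of 4 repeats, or using 1 slide, cannot move a mean by 1 SD of those repeats. Taking the least variable probe moved tnn to 3.19, thbs4b to 0.84, tgfbi to 2.76 and coch to 3.28, and coch was 3.01 on the Cy3 arrays and 2.23 on the Cy5 arrays. Without 1 repeat, tnn ran from 4.44 to 4.55, thbs1b from 4.67 to 4.86, coch from 2.58 to 2.69, thbs4b from 1.19 to 1.47, tgfbi from 1.01 to 1.46 and thbs3a from 0.32 to 0.52. Members called higher were 5 by the main rule and also with the replicate block and dye term, and 3 with the strict limits and with a test against 2-fold. They were 6, with thbs3a among them, with arrays centred and scaled and with the least variable probe, and 4 on the Cy3 arrays and on slide 1. Of the 19 named list genes run under this replicate block and dye term, matn1 and smoc2 lost their call and no other did. Of the 6 pathway lists, 28 genes were called higher and 7 lower. Higher calls were 9 with the strict limits, 6 with the test against 2-fold, 14 on slide 1 and 24 to 26 without 1 repeat. Lower calls were 1, 1, 3 on slide 2, 4 with the slide as a block, and 4 to 6 without 1 repeat. Over all genes, 5309 were called, and 3818 to 4854 without 1 repeat, 2039 on slide 1, 3414 on slide 2, 1275 with the strict limits and 709 against 2-fold. For 19 named list genes, 256 of 304 values stayed on the same side of the threshold and 48 lost a call. Part of this was fixed in advance too. A gene with 1 probe keeps its value under the other probe rules, and tncb had no call to lose. Some of the lost calls came from the strict limits and the test against 2-fold, which raise the threshold. This count therefore does not measure robustness either. The cause of the moved values and lost calls was not tested.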
